A study of Mus musculus with 60 samples.

Results

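Hspa5, Herpud1, Manf and Calr are 4 genes whose proteins keep protein folding in the endoplasmic reticulum (ER) in order, and they are 4 of the 10122 genes in the deposited expression table. They were taken by gene symbol, and each matched 1 row. Hspa5 (ENSMUSG00000026864.13, chromosome 2) encodes BiP, the main Hsp70 chaperone of the ER lumen. Calr (ENSMUSG00000003814.8, chromosome 8) encodes calreticulin, a calcium-binding lectin that folds glycoproteins. Manf (ENSMUSG00000032575.16, chromosome 9) encodes a small protein that binds BiP and is secreted under ER stress. Herpud1 (ENSMUSG00000031770.16, chromosome 8) encodes a membrane protein of the HRD1 ubiquitin ligase complex, which removes misfolded proteins by ER-associated degradation, and is itself short-lived.

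The ER answers a load of misfolded protein with the unfolded protein response. Its 3 sensors are IRE1, PERK and ATF6. They reduce protein synthesis and activate transcription factors that bind ER stress elements in the promoters of chaperone genes, and BiP holds the sensors in check while folding is in balance. Raised temperature is best known for a separate program, the cytosolic heat shock response driven by HSF1.

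The cells were 1 line of immortalised mouse ear fibroblasts, GR NLS-iRFP-NLS, derived from adult DKI mice and carrying fluorescent reporters on the endogenous NF-κB subunits RelA and c-Rel, so every group shares these alleles. Dishes kept overnight at 37 °C were moved to 24, 34, 37 or 40 °C for 2 h. They were then lysed unstimulated, or given 10 ng/mL of TNF-α or IL-1β for 1 h or 3 h at the same temperature, which makes 20 groups of 3 independent biological replicates and 60 RNA-seq libraries. A cytokine group had therefore spent 3 h (1 h of cytokine) or 5 h (3 h of cytokine) at its temperature, against 2 h for the unstimulated cells, and no unstimulated groups of 3 h or 5 h were among the samples. Cytokine and extra hours at a temperature cannot be told apart in such a comparison, whereas groups at 2 temperatures under the same treatment had equal hours. The line is 1 line, so the spread between replicates does not include variation between mice.

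Values are FPKM, fragment counts scaled by transcript length and library size, as the authors deposited them. Differences are on the log2(FPKM + 1) scale from limma fitted to all genes and libraries, and "called" means an adjusted p (Benjamini-Hochberg, over 10122 genes) below 0.05. The estimated depth, in fragments × 1e+06, was 3.52 to 7.72 per library. It averaged 4.58 ± 0.51 at 24 °C, 6.71 ± 0.62 at 34 °C, 6.36 ± 0.55 at 37 °C and 6.41 ± 0.79 at 40 °C (SD, n = 15 each). The 24 °C libraries also carry the last 15 library numbers, so a separate preparation, if there was one, cannot be told apart from that temperature. Of 10 fibroblast markers 8 were measured (Dcn and Lum were not analysed here), with a summed level of 7406.83 to 10067.2 FPKM at 40 °C and 7773.57 to 9348.93 FPKM at 37 °C. Macrophage (Cd68 and Lyz2, summed 1.74 to 6.17 FPKM), keratinocyte (Krt10, 0 to 4.13 FPKM) and endothelial markers (Vwf, 0.05 to 2.5 FPKM) were near 0 at all temperatures, and muscle (Des and Acta1, summed 2.19 to 8.36 FPKM), melanocyte (Mitf and Pmel, summed 2.12 to 5.81 FPKM) and adipocyte markers (Fabp4, 2.06 to 13.47 FPKM) were low. The chondrocyte markers Sox9, Comp and Col9a1 summed to 16.83 to 24.27 FPKM at 24 °C, 11.68 to 15.71 FPKM at 34 °C, 12.16 to 21.22 FPKM at 37 °C and 15.39 to 23.36 FPKM at 40 °C, and their part in the results was not tested. In RNA from whole dishes, a change in the number of cells expressing a gene and a change in the RNA per cell cannot be told apart.

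The promoters are shown because ER stress elements are the best known control sequences of such genes. The ER stress element (ERSE) was searched as CCAAT, any 9 bases and CCACG, and the ERSE-II as ATTGG, any 1 base and CCACG, on both strands, in the 250 bases before each RefSeq start (GRCm38.p6). Capitals mark matches to an ER stress element and to CCAAT, which is the first part of the ERSE and overlaps it and the ERSE-II. RefSeq's table held windows for 3 of the 4 genes, given 5′ to 3′ on the gene's strand.
Hspa5, chr2:34771840-34772089, plus strand: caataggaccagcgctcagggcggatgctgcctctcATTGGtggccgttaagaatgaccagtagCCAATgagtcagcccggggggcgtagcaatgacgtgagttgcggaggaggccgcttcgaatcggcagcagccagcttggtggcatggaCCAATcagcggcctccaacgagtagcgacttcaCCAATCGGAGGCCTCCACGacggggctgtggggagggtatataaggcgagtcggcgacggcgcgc
Herpud1, chr8:94386179-94386428, plus strand: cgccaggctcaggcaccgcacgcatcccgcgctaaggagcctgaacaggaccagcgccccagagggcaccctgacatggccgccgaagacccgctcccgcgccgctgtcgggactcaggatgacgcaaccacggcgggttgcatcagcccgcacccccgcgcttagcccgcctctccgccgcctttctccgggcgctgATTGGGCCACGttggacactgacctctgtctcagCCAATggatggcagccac
Calr, chr8:84846932-84847181, minus strand: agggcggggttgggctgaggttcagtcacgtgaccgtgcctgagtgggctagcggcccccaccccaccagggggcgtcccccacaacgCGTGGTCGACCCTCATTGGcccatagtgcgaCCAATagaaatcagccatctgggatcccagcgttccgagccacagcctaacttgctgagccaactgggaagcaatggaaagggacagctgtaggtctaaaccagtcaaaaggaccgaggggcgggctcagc

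The Hspa5 window held the ERSE as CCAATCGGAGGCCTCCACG, 65 to 47 bases before the start. The Calr window held it on the opposite strand of the gene (printed as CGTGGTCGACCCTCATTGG), 162 to 144 bases before the start. The Herpud1 window held no ERSE but an ERSE-II, ATTGGGCCACG, 52 to 42 bases before the start. Of 32851 windows of the same length in the table, 0.1126% held an ERSE and 0.03044% an ERSE-II, while 33.85% held a CCAAT. Neither the UPR element core TGACGTGG (0.5631% of all windows) nor the heat shock element core GAANNTTC (6.694%) matched in the 3 windows. A match describes letters in a window and not a bound site, and no match says only that these letters are not in the window.

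At 40 °C all 4 transcripts were more abundant than at 37 °C in unstimulated cells. Hspa5 stood at 907.4, 658.16 and 1113.07 FPKM in the 3 libraries at 40 °C, against 301.73, 280.34 and 262.59 FPKM at 37 °C. Herpud1 stood at 231.66, 153.79 and 242.36 FPKM at 40 °C, against 50.56, 51.63 and 52.6 FPKM at 37 °C. Every 40 °C library lay far above every 37 °C library for both genes, and the 40 °C libraries were also the more scattered. Manf, at 345.12, 278.88 and 418.55 FPKM at 40 °C against 168.57, 152.64 and 158.57 FPKM at 37 °C, was again separate between the temperatures. Calr had 488.84, 470.82 and 533.41 FPKM at 40 °C, against 322.75, 285.84 and 271.2 FPKM at 37 °C. Replicate 2 was the lowest of the 40 °C libraries for each of the 4 genes.

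The ratio of the means was 4.06 for Herpud1, 3.17 for Hspa5, 2.17 for Manf and 1.70 for Calr. On the log2 scale these were differences of 1.97 ± 0.20 for Herpud1 (SE, adjusted p = 7.9e-10, limma), 1.63 ± 0.13 for Hspa5 (adjusted p = 1.7e-13), 1.10 ± 0.12 for Manf (adjusted p = 1.6e-09) and 0.76 ± 0.06 for Calr (adjusted p = 3.4e-13). All 4 genes were called higher, where 2.14% of all genes were called higher and 4.14% in either direction. By size of rise Herpud1 ranked 7 of 10122 genes, Hspa5 17, Manf 47 and Calr 119. The SE rests on a spread shared by all 20 groups. For Hspa5, Herpud1, Manf and Calr the SD was 25.5%, 23.1%, 20.1% and 6.47% of the mean at 40 °C. At 37 °C it was 6.96%, 1.98%, 5.03% and 9.06%. Where the 40 °C libraries scatter more, the shared SE may be too small for comparisons with 40 °C. In a fit of the compared groups alone, Manf was no longer called (adjusted p = 0.061), while Hspa5, Herpud1 and Calr stayed called. Against 34 °C, where 9.7% of all genes were called, the 4 genes were called higher at 40 °C too, by 1.52 for Hspa5, 1.48 for Herpud1, 1.07 for Manf and 0.74 for Calr.

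**Figure D1:**
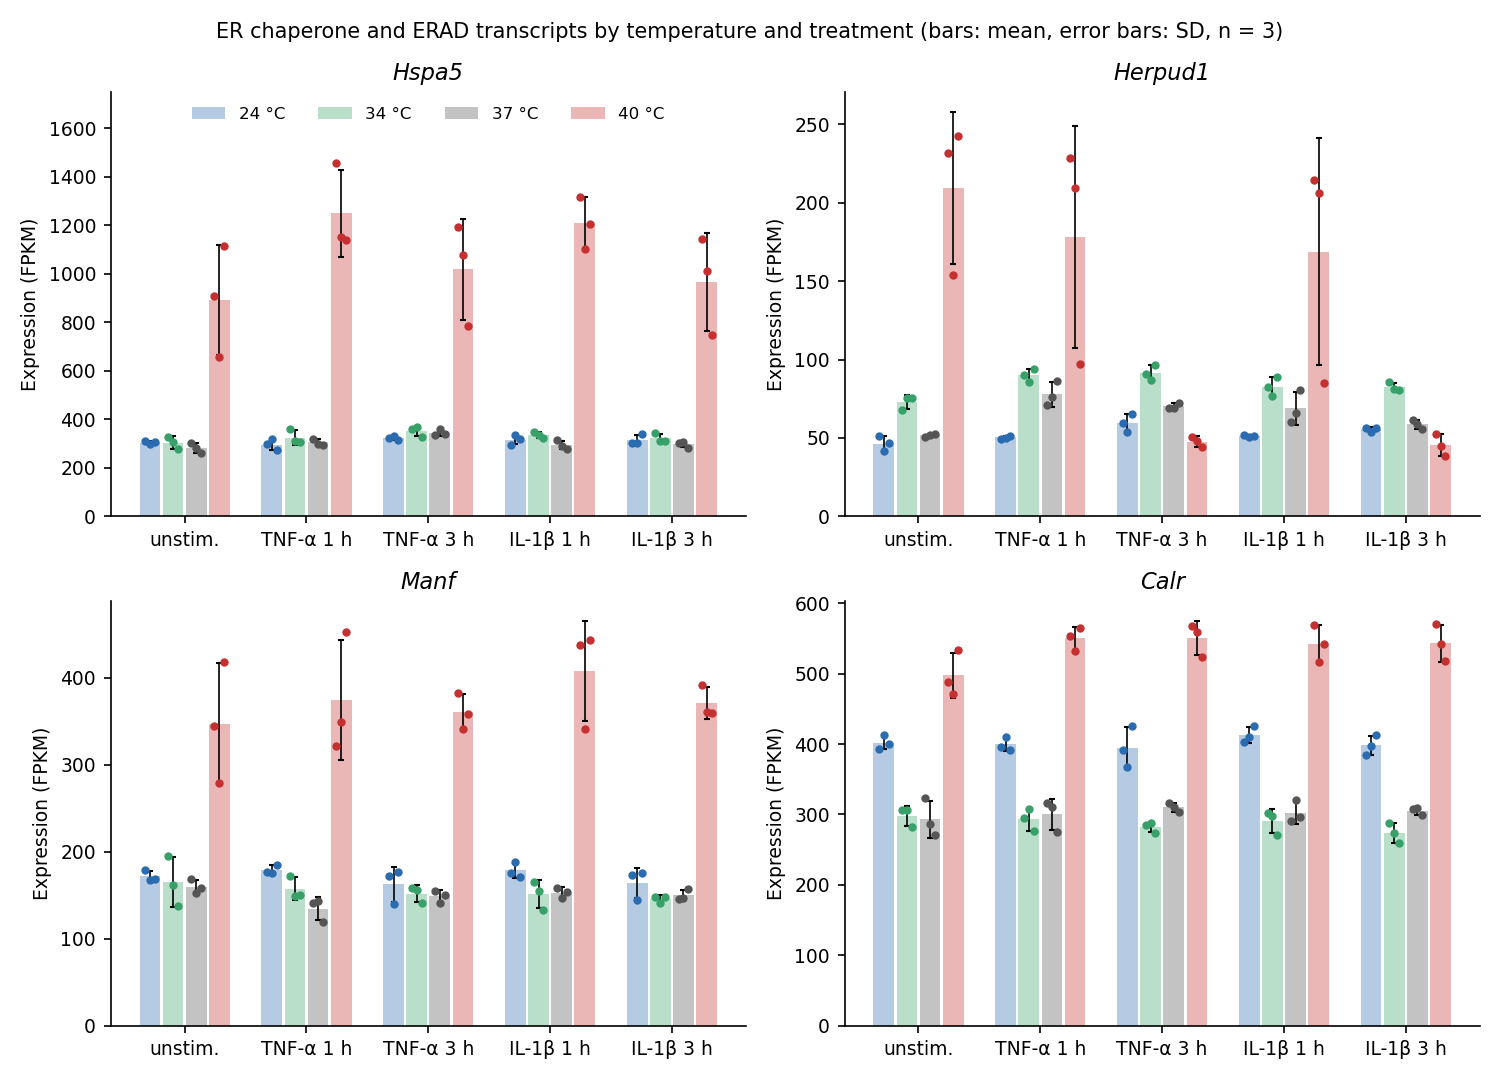
Expression in FPKM of Hspa5, Herpud1, Manf and Calr in 5 treatments and at 4 temperatures; points are single libraries, bars the mean and error bars the SD of 3 libraries. The 5 groups at 40 °C stand above all others for Hspa5, Manf and Calr, whereas Herpud1 at 40 °C is highest in unstimulated cells (209.27 FPKM) and lowest after 3 h of IL-1β (45.4 FPKM).

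The chaperones Hspa5, Manf and Calr kept their high level at 40 °C under both cytokines and at both times. Hspa5, the most abundant of the 4 at 40 °C, ranged from 658.16 to 1456.61 FPKM over the 15 libraries at 40 °C (median 1113.07 FPKM), against 262.59 to 359.22 FPKM at 37 °C (median 301.62 FPKM). Manf ranged from 278.88 to 453.17 FPKM at 40 °C (median 359.77 FPKM), against 119.46 to 168.57 FPKM at 37 °C (median 150.85 FPKM). Calr ranged from 470.82 to 570.33 FPKM at 40 °C (median 541.55 FPKM), against 271.2 to 322.75 FPKM at 37 °C (median 307.09 FPKM). No 40 °C library overlapped a 37 °C library for any of the 3 genes. Under cytokine, the 40 °C difference from 37 °C was 1.54 to 2.03 for Hspa5, 1.27 to 1.46 for Manf and 0.83 to 0.87 for Calr, and each of these was called. Of all genes, 2.45% were called higher and 3.1% lower (5.55% together) at 40 °C than at 37 °C after 1 h of TNF-α, and 3.31% higher and 3.04% lower (6.35%) after 3 h. Under IL-1β, 2.1% were called higher and 2.09% lower (4.2%) after 1 h, and 2.12% higher and 2.68% lower (4.8%) after 3 h.

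Averaged over the 5 treatments, each gene of the 3 was called, and the difference between 40 and 37 °C was 1.78 ± 0.06 for Hspa5, 1.31 ± 0.05 for Manf and 0.83 ± 0.03 for Calr (SE, 15 libraries per temperature), which placed Hspa5 3, Manf 10 and Calr 36 by rise among 10122 genes. In this average 27.5% of all genes were called.

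Herpud1 followed another course. After 1 h of TNF-α it was at 228.45, 209.11 and 97.24 FPKM at 40 °C, against 70.99 to 86.58 FPKM at 37 °C. After 3 h of TNF-α it was at 50.82, 48.17 and 44.02 FPKM at 40 °C, against 68.78 to 72.55 FPKM at 37 °C. The 40 °C libraries thus lay above the 37 °C libraries after 1 h and below them after 3 h. IL-1β gave the same order, with 214.7, 206.2 and 85.32 FPKM after 1 h at 40 °C, against 60.27 to 80.4 FPKM at 37 °C. After 3 h of IL-1β Herpud1 was at 52.58, 44.87 and 38.68 FPKM at 40 °C, against 55.89 to 61.35 FPKM at 37 °C. Replicate 3 was the low library at 1 h under both cytokines.

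The Herpud1 difference between 40 and 37 °C was called after 1 h of TNF-α (1.09 ± 0.20, adjusted p = 0.00032, limma) and of IL-1β (1.18 ± 0.20, adjusted p = 0.00011). After 3 h it was -0.55 ± 0.20 under TNF-α (adjusted p = 0.093) and -0.37 ± 0.20 under IL-1β (adjusted p = 0.35), neither called. The ranges did not overlap, which is a description, as the share of all genes with ranges apart was not counted. Leaving out the 5 replicate 3 libraries at 40 °C was chosen after seeing the data and removes scattered values. Adjusted p-values without them, here and below, are therefore no independent support. Without them, the difference after 1 h of TNF-α was 1.48 (adjusted p = 2.7e-13) and that after 3 h was -0.49 (adjusted p = 0.0034). Herpud1 was then called lower at 40 °C after 3 h of TNF-α. In fits of only the compared groups it was called lower there too (adjusted p = 0.033), while the 1 h differences were not called (adjusted p = 0.28 under TNF-α and 0.25 under IL-1β).

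**Figure D2:**
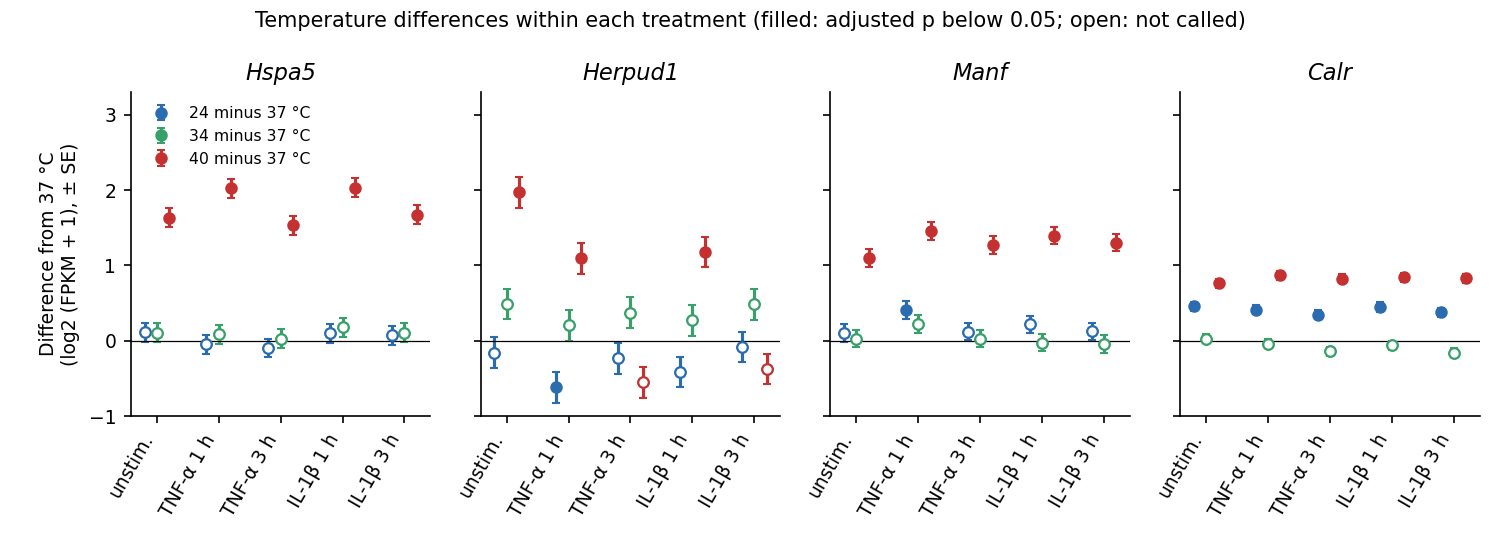
Difference from 37 °C on the log2(FPKM + 1) scale at 24, 34 and 40 °C within each of the 5 treatments, with the SE of the fit; filled points were called and open points were not. The 40 °C points of Hspa5, Manf and Calr all lie at 0.76 or above, those of Herpud1 run from 1.97 in unstimulated cells to -0.55 after 3 h of TNF-α, and Calr is also raised at 24 °C in all 5 treatments.

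Within 40 °C Herpud1 fell between 1 h and 3 h of cytokine. Against unstimulated cells it changed by -2.09 after 3 h of TNF-α (adjusted p = 2.5e-11, limma) and by -2.16 after 3 h of IL-1β (adjusted p = 3e-11), with 19.3% and 8.65% of all genes called in these comparisons. Every library after 3 h of cytokine (38.68 to 52.58 FPKM) lay below every unstimulated library (153.79 to 242.36 FPKM) and below every library after 1 h (85.32 to 228.45 FPKM). Against 1 h of the same cytokine, the change at 3 h was -1.79 for TNF-α (adjusted p = 1e-08) and -1.77 for IL-1β (adjusted p = 1.4e-08). Of all genes, 14.3% were called in the TNF-α comparison and 5.25% in the IL-1β comparison. In fits of the compared groups alone these 2 changes from 1 h to 3 h were not called (adjusted p = 0.056 and 0.086).

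At 24, 34 and 37 °C no estimate of the Herpud1 response to cytokine was below 0. At 37 °C it averaged 77.9 ± 7.94 FPKM after 1 h and 70.2 ± 2.08 FPKM after 3 h of TNF-α, against 51.6 ± 1.02 FPKM in unstimulated cells (SD, n = 3). How many of all genes had ranges apart was not counted, so the ranges are given as a description. The ranges lay apart, and apart upward too for both cytokines and times at 34 and 37 °C and for both cytokines after 3 h at 24 °C. None of these was called (for TNF-α at 37 °C, 0.58 with adjusted p = 0.14 after 1 h and 0.44 with adjusted p = 0.16 after 3 h), and their SE rests on a spread shared with the scattered 40 °C libraries. Without the replicate 3 libraries at 40 °C, left out after seeing the data, the same estimates had adjusted p = 4.1e-05 after 1 h and 0.00094 after 3 h. These p-values are no independent support. The response at 40 °C minus the response at 37 °C, which tests whether the responses differ, was -2.52 for 3 h of TNF-α (adjusted p = 1.5e-07) and -2.34 for 3 h of IL-1β (adjusted p = 1.1e-06). Of all genes, 0.306% and 0.188% were called in these 2 tests, and of the 48 such tests of the 4 genes these 2 were called. Averaged over the 4 temperatures, Herpud1 changed by -0.39 after 3 h of IL-1β (adjusted p = 0.0058), where 12.7% of all genes were called, an average of a fall at 40 °C and of estimates above 0 elsewhere.

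**Figure D3:**
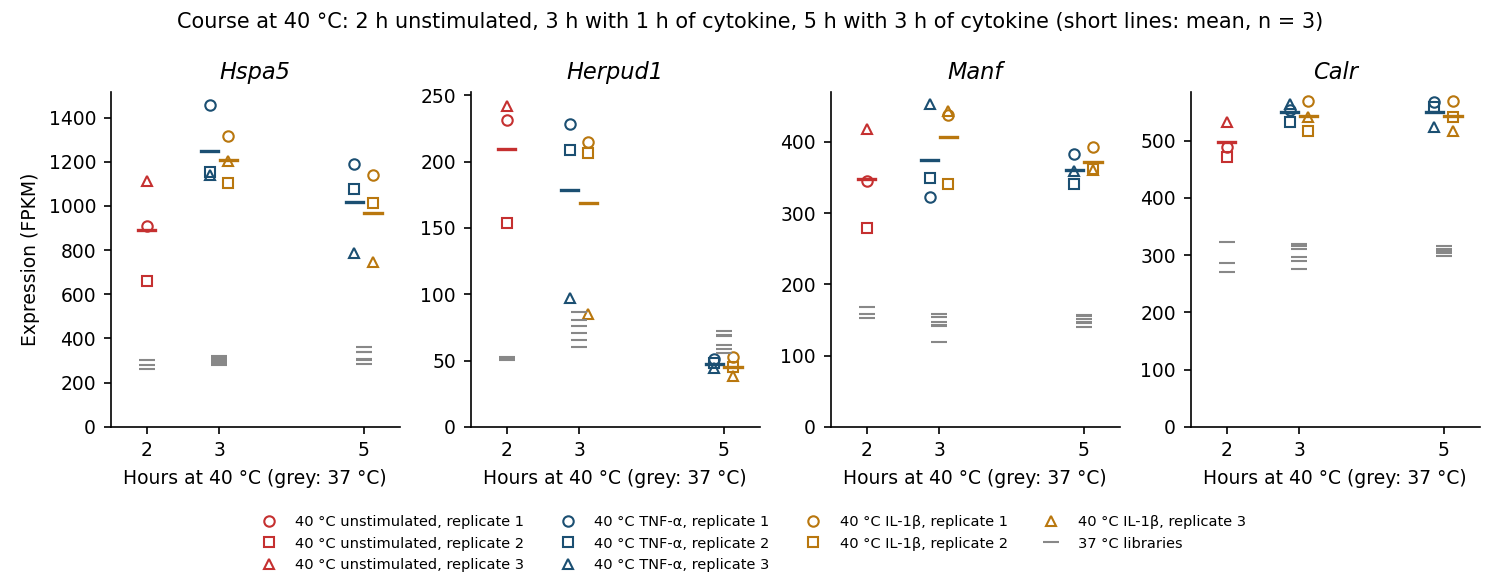
Expression in FPKM at 40 °C against hours at that temperature: 2 h in unstimulated cells, 3 h with the last 1 h in cytokine, 5 h with the last 3 h in cytokine; symbols are single libraries by replicate number, short lines the mean of 3 and grey dashes the 37 °C libraries of equal hours. Herpud1 drops below the grey dashes at 5 h (38.68 to 52.58 FPKM at 40 °C), while Hspa5, Manf and Calr stay above them.

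Hspa5 rose further under 1 h of cytokine at 40 °C. It was at 1456.61, 1152.98 and 1141.45 FPKM after 1 h of TNF-α and at 1318.09, 1104.47 and 1205.73 FPKM after 1 h of IL-1β, against 907.4, 658.16 and 1113.07 FPKM in unstimulated cells. The TNF-α libraries all lay above the unstimulated ones, whereas the lowest IL-1β library lay just under the highest unstimulated one. The changes were 0.51 ± 0.13 for TNF-α (adjusted p = 0.0068, limma) and 0.47 ± 0.13 for IL-1β (adjusted p = 0.022), with 5.37% and 3.16% of all genes called. Both rested on single libraries: without the unstimulated replicate 2 the TNF-α change was 0.31 (adjusted p = 0.22) and the IL-1β change 0.26 (adjusted p = 0.49), and the calls also ended without replicate 1 of the cytokine group (adjusted p = 0.11 and 0.17), and for IL-1β without its replicate 3 (adjusted p = 0.071). Neither was called in a fit of the compared groups alone (adjusted p = 0.46 and 0.48).

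After 3 h of cytokine at 40 °C Hspa5 was at 1191.9, 1077.96 and 785.31 FPKM under TNF-α and at 1141.99, 1013.54 and 747.35 FPKM under IL-1β. These overlapped the unstimulated libraries, and neither change was called (0.20 with adjusted p = 0.31, and 0.13 with adjusted p = 0.65). Replicate 3 was the low library in both, at 69.2% and 69.3% of the mean of replicates 1 and 2, while it was the high library in unstimulated cells. Without replicate 3 at 40 °C, Hspa5 was called higher than in unstimulated cells in all 4 cytokine groups, by 0.75 and 0.64 after 1 h of TNF-α and IL-1β and by 0.55 and 0.48 after 3 h. This omission was chosen after seeing the data. Averaged over the 4 temperatures, Hspa5 was 0.20 higher after 3 h of TNF-α than in unstimulated cells (adjusted p = 0.013), a comparison in which 28.4% of all genes were called.

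Manf and Calr were called by limma in none of 32 comparisons of cytokine-treated with unstimulated cells at single temperatures, of which 7 had an unadjusted p under 0.05. At 40 °C the estimates for Manf lay between 0.07 and 0.24 and those for Calr between 0.13 and 0.15. Without replicate 3 at 40 °C, an omission chosen after seeing the data, Calr was called higher there after 3 h of TNF-α (0.23, adjusted p = 0.024). Of the 64 responses of the 4 genes at single temperatures, the 4 called were the 2 of Hspa5 after 1 h and the 2 of Herpud1 after 3 h, all at 40 °C. In the 12 responses at 24, 34 and 37 °C, 0.0494% to 14% of all genes were called.

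TNF-α and IL-1β were compared directly at equal temperature and time in 32 tests over the 4 genes, in which limma called none and 0 had an unadjusted p under 0.05. Of all genes, 0.0296% to 5.56% were called in these 8 comparisons. For Herpud1 at 40 °C the TNF-α minus IL-1β difference was 0.10 after 1 h (95% interval -0.31 to 0.51) and 0.08 after 3 h (95% interval -0.33 to 0.49). For Hspa5 at 40 °C it was 0.04 after 1 h (95% interval -0.21 to 0.30) and 0.07 after 3 h (95% interval -0.18 to 0.33).

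**Figure D4:**
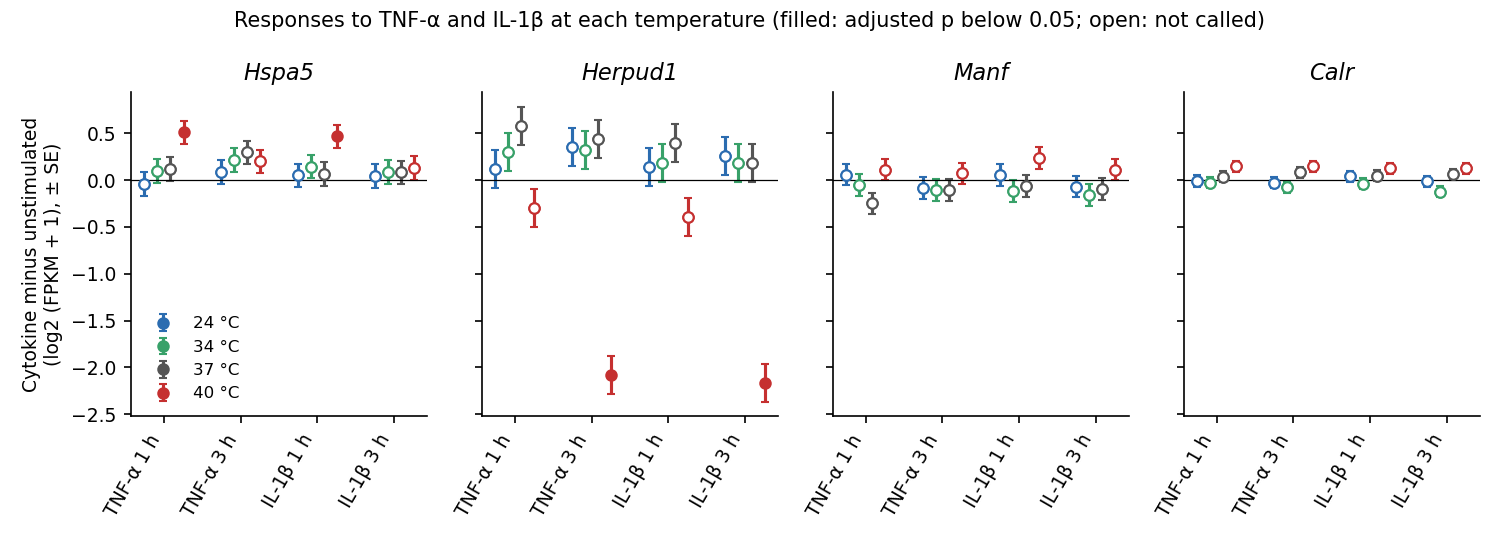
Change under TNF-α and IL-1β against unstimulated cells at each of 4 temperatures on the log2(FPKM + 1) scale, with the SE of the fit; filled points were called and open points were not. The filled points are those of Herpud1 at 40 °C after 3 h (-2.09 and -2.16) and of Hspa5 at 40 °C after 1 h (0.51 and 0.47).

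At 24 °C Calr was higher than at 37 °C in every treatment. It ranged from 367.62 to 426.07 FPKM over 15 libraries at 24 °C (median 400.76 FPKM), against 271.2 to 322.75 FPKM at 37 °C (median 307.09 FPKM). The ranges did not touch, and the 5 groups at 24 °C came next after the 5 groups at 40 °C in the order of Calr levels, apart from all groups at 34 and 37 °C. The difference from 37 °C was 0.46 ± 0.06 in unstimulated cells (adjusted p = 1.7e-07, limma), 0.35 to 0.45 under cytokine, and called in all 5 treatments. Calr was not alone: in unstimulated cells 11 of 20 measured cytosolic heat shock chaperones were called higher at 24 °C and none lower (median 0.35). Of 15 measured ER chaperones and folding enzymes other than Hspa5, Manf and Calr, 4 were called higher and 1 lower (median 0.14). The background was high: 20.7% of all genes were called in either direction at 24 °C in unstimulated cells. These shares were 28.3% and 28.5% after 1 h and 3 h of TNF-α, and 21.9% and 25.5% after 1 h and 3 h of IL-1β. The share called higher alone is not given here.

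Of the other 3 genes, Hspa5 was not called at 24 °C in any treatment. It averaged 311 ± 17.3 FPKM at 24 °C and 305 ± 25.9 FPKM at 37 °C (SD, n = 15), with an averaged difference of 0.03 (95% interval -0.08 to 0.14). Manf averaged 171 ± 13.1 FPKM at 24 °C and 149 ± 11.2 FPKM at 37 °C, an averaged difference of 0.20 (adjusted p = 0.0012), and was called within 1 treatment, 1 h of TNF-α (0.41, adjusted p = 0.0057), a call that ended without replicate 3 of the 37 °C group (adjusted p = 0.058). Herpud1 averaged 52.6 ± 5.56 FPKM at 24 °C and 65.4 ± 10.9 FPKM at 37 °C, an averaged difference of -0.30 (adjusted p = 0.0047). It too was called within 1 treatment, 1 h of TNF-α (-0.62, adjusted p = 0.018), a call that ended without replicate 1 of the 24 °C group (adjusted p = 0.051) or replicate 3 of the 37 °C group (adjusted p = 0.085). In the averaged comparison of 24 with 37 °C, 54.9% of all genes were called.

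At 34 °C limma called none of the 4 genes within a treatment, and 4 of these 20 tests had an unadjusted p under 0.05. Of all genes, 0.366% were called in unstimulated cells, 0.316% and 1.75% after 1 h and 3 h of TNF-α, and 0.247% and 1.57% after 1 h and 3 h of IL-1β. In unstimulated cells Herpud1 stood at 67.63 to 75.4 FPKM at 34 °C, against 50.56 to 52.6 FPKM at 37 °C, with no overlap, which is again a description. It averaged 83.9 ± 7.86 FPKM at 34 °C and 65.4 ± 10.9 FPKM at 37 °C over 15 libraries each, and the averaged difference of 0.37 ± 0.09 was called (adjusted p = 0.0043), where 11.6% of all genes were. For Hspa5, Manf and Calr the averaged differences were 0.10, 0.04 and -0.07, and none was called. Levels of Herpud1 outside 40 °C therefore ran in the order 34, 37 and 24 °C by their mean, with overlapping ranges between neighbours.

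Part of the list of ER chaperones was also called higher at 40 °C. Of 29 listed ER chaperones and folding enzymes 18 were measured, and in unstimulated cells 10 were called higher and none lower at 40 °C, with a median difference of 0.45, against -0.02 over all genes. Without Hspa5, Manf and Calr, 7 of 15 were called higher and the median was 0.27, where 2.14% of all genes were called higher. Without replicate 3 at 40 °C, 10 were again called higher and 0 lower. The glucose-regulated Hsp90 of the ER, Hsp90b1, averaged 531 ± 70.4 FPKM at 40 °C, against 279 ± 12.2 FPKM at 37 °C in unstimulated cells (0.92, adjusted p = 2.3e-08), and stayed at 602 to 634 FPKM on average under cytokine at 40 °C. The disulfide isomerase Pdia4 averaged 202 ± 36.3 FPKM at 40 °C and 102 ± 5.66 FPKM at 37 °C (0.97, adjusted p = 2.9e-11). Hyou1, an Hsp70-like partner of BiP, was 0.81 higher, the oxidase Ero1lb 0.94 higher and the lectin Canx, the membrane-bound relative of calreticulin, 0.33 higher. Counts of the list called higher at 40 °C under cytokine were 12 and 9 after 1 h and 3 h of TNF-α and 11 and 11 after 1 h and 3 h of IL-1β, with none lower, where 2.45%, 3.31%, 2.1% and 2.12% of all genes were called higher. Sdf2l1 and Creld2 were not analysed here.

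Dnajb9, a J-domain partner of BiP, was higher at 40 than at 37 °C early, and after 3 h of IL-1β it was near its 37 °C level. It averaged 13.8 ± 3.66 FPKM in unstimulated cells at 40 °C, against 6.33 ± 1.09 FPKM at 37 °C (0.99, adjusted p = 1.9e-05). After 1 h of IL-1β it averaged 16.9 ± 2.2 FPKM at 40 °C, against 5.2 ± 1.02 FPKM at 37 °C. After 3 h of IL-1β it averaged 7.15 ± 0.957 FPKM at 40 °C, against 7.48 ± 0.727 FPKM at 37 °C. From 1 h to 3 h of cytokine at 40 °C Dnajb9 fell by 0.71 under TNF-α (adjusted p = 0.001) and by 1.14 under IL-1β (adjusted p = 1.1e-06).

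Among 14 measured genes of ER-associated degradation, Herpud1 included, 3 were called higher and none lower at 40 °C in unstimulated cells. Besides Herpud1 these were Sel1l, the scaffold of the HRD1 complex (0.78, adjusted p = 2.6e-07), and Edem1, which hands misfolded glycoproteins to degradation (0.63, adjusted p = 4.3e-06). Sel1l stayed high when Herpud1 had fallen: after 3 h of TNF-α it averaged 47.2 ± 2.27 FPKM at 40 °C, against 32.5 ± 0.581 FPKM at 37 °C. Sel1l and Edem1 were called higher at 40 °C in all 5 treatments, and Herpud1 in 3. Of the 22 measured genes of the translocon and secretory load, 1 was called higher and none lower in unstimulated cells, where 2.14% of all genes were called higher and 4.14% in either direction. Under cytokine 5 and 4 were called higher after 1 h and 3 h of TNF-α, and 4 and 4 after IL-1β. None was called lower, and 2.45%, 3.31%, 2.1% and 2.12% of all genes were called higher there. Averaged over the 5 treatments, 14 were called higher and none lower (median 0.12), where 27.5% of all genes were called in either direction.

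Of 10 measured sensors and transcription factors of the response, 1 was called at 40 °C in unstimulated cells, where 4.14% of all genes were called. This was Eif2ak3, which encodes PERK, and it was higher (0.58, adjusted p = 0.00069), at 17.5 ± 2.38 FPKM at 40 °C, against 11.3 ± 0.861 FPKM at 37 °C. Under cytokine it was called higher at 40 °C after 1 h of IL-1β (0.41, adjusted p = 0.03) and not after 1 h of TNF-α (0.32, adjusted p = 0.092), 3 h of TNF-α (0.35, adjusted p = 0.053) or 3 h of IL-1β (0.26, adjusted p = 0.21). Ern1, encoding IRE1, and Atf6 were not called in unstimulated cells, and Atf6 was called lower at 40 °C after 3 h of TNF-α (-0.44, adjusted p = 0.00065). Xbp1 and Atf4 were not analysed here.

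The 16 listed targets of PERK and the integrated stress response were all measured. In unstimulated cells at 40 °C, 6 were called higher and 1 lower, with a median difference of 0.20, against -0.02 over all genes. Of all genes, 2.14% were called higher and 2% lower there. Without replicate 3 at 40 °C the counts of the list were 5 and 1. Ddit3, which encodes the transcription factor CHOP, averaged 25.7 ± 6.44 FPKM at 40 °C, against 8.89 ± 1.53 FPKM at 37 °C (1.41, adjusted p = 4.7e-07). Atf3, another transcription factor of the response, was 0.91 higher and Chac1, a glutathione-degrading enzyme, 0.76 higher, whereas Ppp1r15a, which encodes the phosphatase subunit GADD34, fell by 1.03 and stood at 13.6 ± 4.18 FPKM at 40 °C, against 28.8 ± 7.95 FPKM at 37 °C. After 1 h of cytokine, 0 were called higher and 5 lower at 40 °C under TNF-α, and 1 higher and 3 lower under IL-1β. After 3 h, 0 were called higher and 7 lower under TNF-α (median -0.49), and 1 higher and 6 lower under IL-1β. Of all genes, 2.45% were called higher and 3.1% lower after 1 h of TNF-α, and 2.1% and 2.09% after 1 h of IL-1β. After 3 h these shares were 3.31% and 3.04% under TNF-α, and 2.12% and 2.68% under IL-1β. Without replicate 3 at 40 °C the counts after 1 h of TNF-α were 2 higher and 3 lower, after 1 h of IL-1β 1 and 1, and after 3 h 0 and 5 for TNF-α and 1 and 5 for IL-1β. Against unstimulated cells at 37 °C, 11 of the 16 were called higher after 3 h of TNF-α (median 0.64) and 0 lower. After 3 h of IL-1β there, 7 were called higher and 0 lower (median 0.53). Within 40 °C the 3 h counts against unstimulated cells were 0 higher and 2 lower for TNF-α, and 1 and 2 for IL-1β. Of all genes, 0.0494% to 14% were called in responses at 24, 34 and 37 °C, and 19.3% and 8.65% in these at 40 °C. Ddit3 after 3 h of TNF-α averaged 16.5 ± 3.16 FPKM at 40 °C, against 19.3 ± 2.69 FPKM at 37 °C. At 34 °C, averaged over treatments, 11 of the 16 were called higher and 1 lower than at 37 °C (median 0.30), where 11.6% of all genes were called, beside the Herpud1 difference of 0.37.

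**Figure D5:**
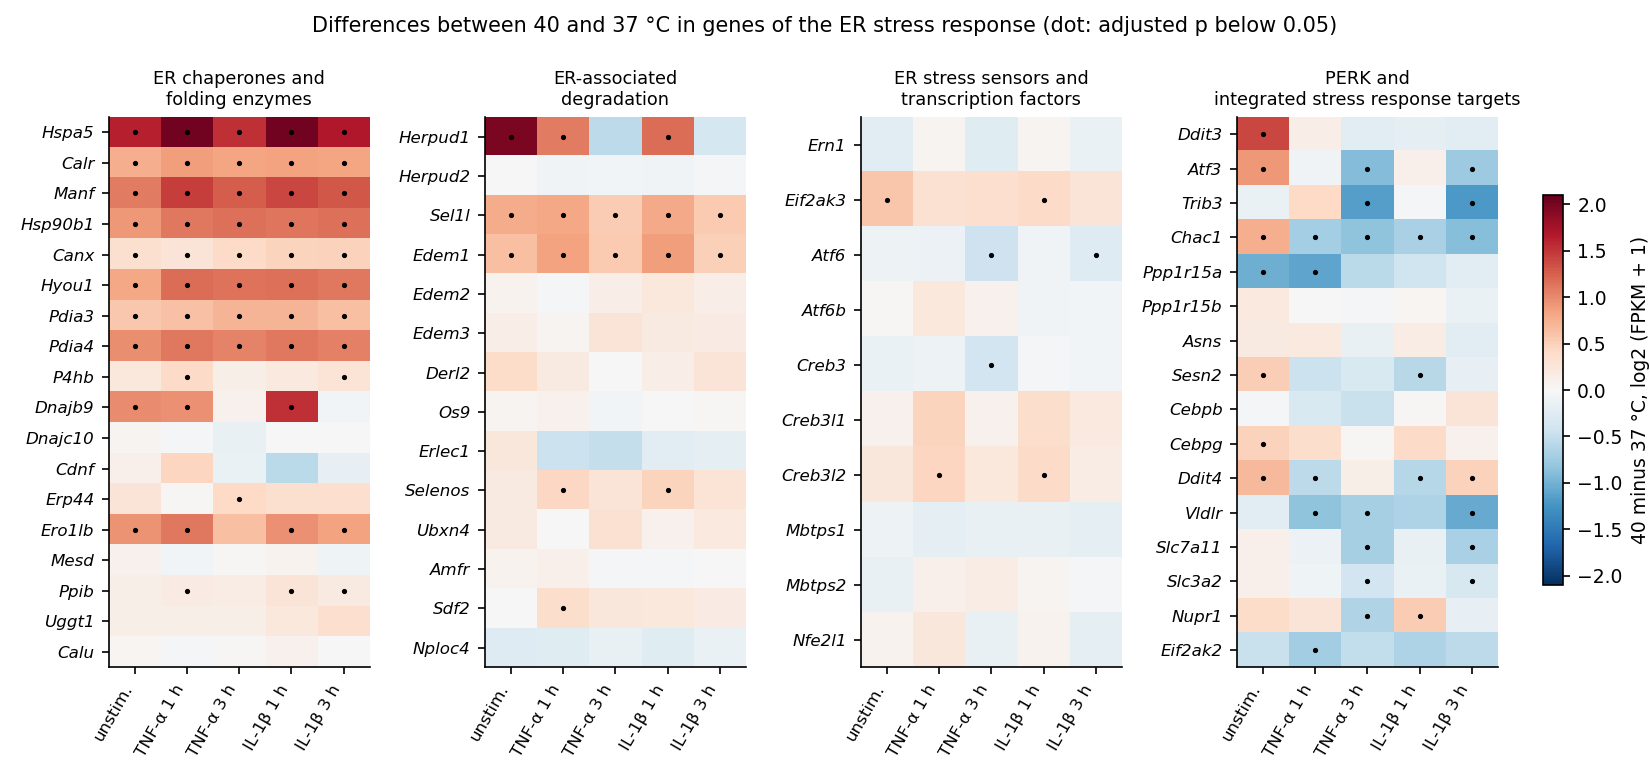
Difference between 40 and 37 °C on the log2(FPKM + 1) scale (red, higher at 40 °C; blue, lower) for the measured genes of 4 lists, in 5 treatments; dots mark called differences. Hspa5, Manf, Hsp90b1, Hyou1 and Pdia4 are red across all 5 treatments, while Herpud1, Dnajb9, Ddit3 and Atf3 are red in unstimulated cells and pale or blue after 3 h of cytokine.

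The cytosolic heat shock chaperones rose beside the ER genes. Of 20 measured, 19 were called higher and none lower at 40 °C in unstimulated cells, with a median difference of 1.24. Of all genes, 2.14% were called higher and 4.14% in either direction, and their median difference was -0.02. The small heat shock protein gene Hspb1 averaged 701 ± 264 FPKM at 40 °C, against 115 ± 6.74 FPKM at 37 °C (2.54, adjusted p = 3.1e-14). The inducible Hsp70 gene Hspa1b averaged 207 ± 36.5 FPKM at 40 °C, against 37 ± 2.19 FPKM at 37 °C (2.44, adjusted p = 8.8e-20), and Dnajb1, an Hsp40 partner of Hsp70, was 1.96 higher. Reads of Hspa1a and Hspa1b, near-identical copies, may have been split between them in counting. Hspb1 remained at 639 ± 175 FPKM after 3 h of TNF-α at 40 °C, against 105 ± 4.76 FPKM at 37 °C, while Hspa1b was at 79.1 ± 13.5 FPKM at 40 °C, against 45.6 ± 1.39 FPKM at 37 °C. Within 40 °C, 9 of the 20 were called lower and 1 higher after 3 h of TNF-α than in unstimulated cells. After 3 h of IL-1β, 9 were called lower and 0 higher. Of all genes, 19.3% and 8.65% were called either way there. Against 37 °C, 18 and 16 of the 20 were still called higher after 3 h of TNF-α and IL-1β, where 3.31% and 2.12% of all genes were. Replicate 3 at 40 °C held 142% to 180% of the mean Hspb1 level of replicates 1 and 2 in the 5 treatments, and it had the lowest Ddit3 level in all 5. Its Herpud1 level was 44.4% of that mean after 1 h of TNF-α and 40.5% after 1 h of IL-1β, and whether these are linked was not tested.

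Likeness of pattern was measured as Pearson's r over the 20 group means, which share libraries and the 5 groups at 40 °C, and is a description. The genes most like Hspa5 were Hspb1 (0.980), Manf (0.972), Hsp90b1 (0.964), Ero1lb (0.958) and Hsph1 (0.957). For Manf they were Pdia4 (0.990), Hyou1 (0.989), Serpinh1 (0.985), Hsp90b1 (0.983) and Hsph1 (0.979). Both lists mix ER and cytosolic heat shock genes, and Serpinh1 is the ER chaperone of collagen. Calr was most like Ahsa1 (0.985), Pdia3 (0.982), Fkbp4 (0.980), Hsp90ab1 (0.965) and Cacybp (0.964). Pdia3 is the oxidoreductase that works with calreticulin, and Ahsa1, Fkbp4 and Hsp90ab1 belong to the cytosolic Hsp90 machinery. Herpud1 was most like Atp2a2 (0.915), the calcium pump that fills the ER, then Dnajb9 (0.850), Hspb8 (0.828), Dnajb4 (0.821) and Tsc22d3 (0.783). Atp2a2 averaged 127 ± 12.6 FPKM in unstimulated cells at 40 °C, against 95.2 ± 0.12 FPKM at 37 °C, and 92.7 ± 9.32 FPKM after 3 h of TNF-α at 40 °C, against 91 ± 3.49 FPKM at 37 °C.

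The likeness among the 4 genes rested on 40 °C for some pairs and not for others. Over all 20 group means r was 0.97 for Hspa5 with Manf and 0.84 for Hspa5 with Calr. Over the 15 group means without 40 °C it was -0.25 and -0.16, whereas Manf with Calr had 0.91 with and 0.76 without 40 °C. Hspa5 with Herpud1 had 0.51 with and 0.59 without 40 °C. Herpud1 with Calr had 0.18 with and -0.78 without 40 °C, and Herpud1 with Manf 0.40 and -0.70. Outside 40 °C the temperature means of Calr ran in the order 24, 37 and 34 °C and those of Herpud1 in the reverse order.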

How the data were processed

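Library kit and strandedness are not given in the sources used here. The deposited table holds FPKM values that the authors made per gene and library, limited to 10122 genes, each with 1 FPKM or more in 4 or more libraries. Per the submitters' processing notes the tools were STAR 2.7.11b, RSEM 1.3.3 and edgeR with GRCm39, in no stated role. The gene IDs match GENCODE M21 in all 10122 cases. Fragment depth was estimated from the steps of low FPKM values in 1147 single-transcript genes, taking the depth at which most values were whole within 0.1 (79.2% to 93.0% per library), so it has no independent check and covers no interval.

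From the FPKM values, log2(FPKM + 1) was fitted in limma 3.58.1 (R 4.3.3) with 1 mean per group over 60 libraries and 20 groups (40 residual degrees of freedom) and a mean-variance trend. The 69 comparisons were two-sided, each adjusted over 10122 genes (Benjamini-Hochberg, 0.05); the low-value filter removed 0 genes. The fit was run on simulated data with 1 spread per gene in all groups, which does not test it under the greater scatter at 40 °C. Fold changes of low genes are understated by the added 1, and p-values measure the spread between replicate cultures of 1 line.

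The 4 genes, the gene lists and the tests were chosen with earlier results of these data known. Other named genes were, per list except the translocon list, up to 4 called genes of largest absolute difference between 40 and 37 °C in unstimulated cells, a fixed set of well known ER and heat shock genes, and the 5 genes most like each of the 4. Alternatives changed the pseudocount (0.1), the filter (mean FPKM of 5 or more, or none), the scaling (trimmed mean, median ratio), the trend, a replicate block, the libraries in the fit and each replicate in turn. Leaving out the 5 replicate 3 libraries at 40 °C was chosen after seeing the data. Promoter windows come from RefSeq (GRCm38.p6).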

Additional observations from a re-analysis of the deposited data

Results flagged for a closer look

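Herpud1 responded differently at 40 and 37 °C after 3 h of both cytokines, by a test of the difference itself. The response at 40 °C minus that at 37 °C was -2.52 on the log2 scale for TNF-α (-2.09 at 40 °C, against 0.44 at 37 °C) and -2.34 for IL-1β (-2.16 at 40 °C, against 0.18 at 37 °C). All 3 libraries per cytokine at 40 °C lay below the unstimulated ones, and all 3 at 37 °C lay above theirs. The unstimulated level of Herpud1 at 40 °C (153.79 to 242.36 FPKM) was already above that at 37 °C (50.56 to 52.6 FPKM) after 2 h, and the 3 h groups had spent 5 h at their temperature. Cytokine and the added hours at 40 °C cannot be told apart in this test.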

How the results depend on the processing

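No alternative turned the direction of a called result of Hspa5, Herpud1, Manf or Calr. All 276 results kept their side of the threshold with a pseudocount of 0.1, with either filter, with median-ratio scaling and without the trend. Trimmed-mean scaling moved 1, the Calr response to 1 h of TNF-α at 40 °C (0.20, adjusted p = 0.048).

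The labels do not say that a replicate number marks a shared day or batch, and most same-numbered pairs had a correlation of deviations of 0.1 or less (56 of 570 above 0.1, median 0.037; at equal temperature 18 of 120, median 0.043), so no pairing was assumed. At 40 °C replicate 3 was nonetheless the highest for Hspb1 and the lowest for Ddit3 in all 5 treatments. At 34, 37 and 40 °C, replicates 1, 2 and 3 carry library numbers 1 to 15, 16 to 30 and 31 to 45. The pairs counted above also include 24 °C, with library numbers 46 to 60, outside these runs. A replicate block of 3 numbers changed none of the 276 calls, Hspa5 at 40 °C in unstimulated cells staying at 1.63. A replicate block within temperature added 8: Hspa5 averaged responses to 1 h of TNF-α (0.17) and IL-1β (0.18) and 3 h against 1 h of TNF-α at 40 °C (-0.31), Herpud1 at 40 against 37 °C after 3 h of TNF-α (-0.55), its response to 1 h of TNF-α at 37 °C (0.58) and its averaged response to 3 h of TNF-α (-0.24), Calr at 34 against 37 °C on average (-0.072) and its response to 3 h of TNF-α at 40 °C (0.15).

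In fits of only the compared groups, which have fewer libraries to estimate the spread, 7 calls were lost: Manf at 40 °C unstimulated (1.10), Herpud1 at 40 °C after 1 h of TNF-α (1.09) and IL-1β (1.18) and from 1 h to 3 h at 40 °C (-1.79 and -1.77), and Hspa5 responses after 1 h at 40 °C (0.51 and 0.47). There 8 were gained: Hspa5 at 34 °C on average (0.10) and after 3 h of TNF-α at 37 °C (0.30), Herpud1 at 40 °C after 3 h of TNF-α (-0.55), its responses to TNF-α at 37 °C (0.58 after 1 h, 0.44 after 3 h), at 34 °C after 3 h (0.32) and on average after 3 h (-0.24), and TNF-α minus IL-1β on average after 3 h (0.15).

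Without the 5 replicate 3 libraries at 40 °C, an omission chosen after seeing the data, 21 were gained and 0 lost. For Herpud1 these were 34 against 37 °C unstimulated (0.49), after 3 h of TNF-α (0.38) and of IL-1β (0.49), 24 against 37 °C after 1 h of IL-1β (-0.41), 40 against 37 °C after 3 h of TNF-α (-0.49), responses to 3 h of TNF-α at 24, 34 and 37 °C (0.36, 0.32 and 0.44), to 1 h of TNF-α and IL-1β at 37 °C (0.58 and 0.40), and averaged responses to TNF-α after 1 h (0.30) and 3 h (-0.20) and to IL-1β after 1 h (0.22). For Hspa5 they were responses to 3 h of TNF-α at 37 °C (0.30) and 40 °C (0.55), to 3 h of IL-1β at 40 °C (0.48), averaged responses to 1 h of TNF-α (0.23) and 1 h and 3 h of IL-1β (0.23 and 0.17), and the 40 minus 37 °C response to 1 h of TNF-α (0.63). For Calr it was the response to 3 h of TNF-α at 40 °C (0.23).

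Leaving out each replicate in turn moved the side of the threshold for 13 results. The Hspa5 responses at 40 °C ranged from 0.31 to 0.68 (1 h of TNF-α), 0.26 to 0.64 (1 h of IL-1β) and -0.0029 to 0.38 (3 h of TNF-α), its averaged responses from 0.12 to 0.21 (1 h of TNF-α) and 0.13 to 0.23 (1 h of IL-1β), and 3 h against 1 h at 40 °C from -0.43 to -0.13 (TNF-α) and -0.47 to -0.16 (IL-1β). Herpud1 at 24 °C after 1 h of TNF-α ranged from -0.68 to -0.54, and its averaged responses to TNF-α from 0.12 to 0.27 (1 h) and -0.29 to -0.21 (3 h). Manf at 24 °C after 1 h of TNF-α ranged from 0.33 to 0.46, Calr at 34 °C on average from -0.085 to -0.058 and its response to 3 h of TNF-α at 40 °C from 0.11 to 0.20.

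The count of all genes called moved with the libraries in the fit and with the block. At 40 against 37 °C unstimulated it was 39 with only the compared groups, 631 with the block within temperature and 245 without replicate 3 at 40 °C, against 419 in all libraries. After 1 h and 3 h of TNF-α it was 20 and 66 with only the compared groups and 946 and 1102 with that block, against 562 and 643. After 1 h and 3 h of IL-1β it was 52 and 59, and 651 and 805, against 425 and 486. For the 40 minus 37 °C responses to 3 h of TNF-α and IL-1β it was 4 and 9 with only the compared groups and 108 and 48 with that block (61 for TNF-α with 3 numbers), against 31 and 19. With only the compared groups it was also 290 for 40 against 34 °C (982 in all libraries), 724 for 24 against 37 °C unstimulated (2098), 0 to 1 for 34 against 37 °C within treatments (25 to 177 in all libraries), 143, 1269, 110 and 330 for the responses at 40 °C to 1 h and 3 h of TNF-α and 1 h and 3 h of IL-1β (544, 1950, 320 and 876), and 154 and 108 for 3 h against 1 h at 40 °C (1443 and 531). At 24 against 37 °C after 1 h and 3 h of TNF-α and 1 h and 3 h of IL-1β it was 1807, 1919, 1011 and 1434 (2866, 2884, 2215 and 2582). For 34 against 37 °C after 1 h and 3 h of TNF-α and 1 h and 3 h of IL-1β it was 94, 379, 86 and 362 with the block within temperature and 63, 278, 58 and 288 with 3 numbers (32, 177, 25 and 159 without a block), and for 3 h against 1 h of IL-1β at 40 °C 820 with the block within temperature. Without 1 library each it fell to as few as 242 at 40 against 37 °C unstimulated, 296 and 353 after 1 h and 3 h of TNF-α and 211 and 267 after 1 h and 3 h of IL-1β. At 34 against 37 °C it fell to as few as 14 unstimulated (37), 5 and 98 after 1 h and 3 h of TNF-α and 9 and 75 after 1 h and 3 h of IL-1β. Within 40 °C it fell to as few as 578 for the response to 3 h of IL-1β, and to 928 and 311 for 3 h against 1 h of TNF-α and IL-1β.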
